A study of Mus musculus with 16 samples.

Results

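The 10 genes described here encode the TREM2 receptor, its signalling partners and the Fc gamma receptors of mouse microglia, and were taken by symbol from the 56980 genes of the deposited count table. They are Trem2, Tyrobp, Syk, Plcg2, Inpp5d, Fcer1g, Fcgr1, Fcgr2b, Fcgr3 and Fcgr4. All 10 were found and all 10 passed the filter on low counts, which kept 12272 genes. The study sequenced 3' mRNA tags from primary microglia that were shaken off mixed glial cultures of cortex and hippocampus from newborn mice (postnatal days 1 to 3). There were 4 groups with 4 libraries each: Grn KO with 2 uM rimeporide for 72 h, WT with 2 uM rimeporide for 72 h, Grn KO with the vehicle DMSO for 72 h, and WT with DMSO for 72 h. Grn encodes progranulin, a secreted protein that is delivered to lysosomes, and rimeporide is an inhibitor of sodium-hydrogen exchange. All groups shared the same culture route, including contact with other glia before the microglia were detached. The labels call the libraries biological replicates. They do not say whether animals were pooled, which part of Grn was deleted or which strain was used. The p-values measure the spread between these libraries. The series title is about acidification of lysosomes and the transcriptome of Grn KO microglia. Its design lets each of 3 questions be asked of these genes: how Grn KO differs from WT under either treatment, how rimeporide differs from DMSO within a genotype, and whether that response depends on genotype.

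TREM2 is a surface receptor for lipids, lipoproteins and cell debris that has no signalling motif of its own. It pairs with TYROBP (also called DAP12), whose immunoreceptor tyrosine-based activation motif (ITAM) is phosphorylated and recruits the kinase SYK, which acts through phospholipase C gamma 2 among others. Activating Fc gamma receptors bind IgG and use the same design with another ITAM adaptor, the common gamma chain FCER1G. The inhibitory receptor FCGR2B and the lipid phosphatase INPP5D (SHIP1) act in the other direction, since INPP5D removes a phosphate from the lipid that recruits downstream effectors. Human TREM2, PLCG2 and INPP5D are risk loci for Alzheimer's disease, and microglia are the main cells of the brain that carry this pathway.

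Library totals ran from 3666367 to 7929470 counts, and levels are given as CPM, counts relative to the library total scaled by TMM. A 3' tag protocol counts transcripts near their end, so levels are compared between groups of libraries and not between genes. Grn itself stood at 10.7 to 24.2 CPM in the 8 Grn KO libraries, against 1597 to 1827 CPM in the 8 WT libraries. The microglia markers Csf1r, C1qa and Itgam had group means of 339 to 480.5 CPM, whereas Tmem119 had group means of 3.28 to 7.19 CPM, Sall1 of 1.10 to 1.80 CPM, and Siglech had 8 counts in all libraries together. Transcripts of other brain cells differed between genotypes. Of 9 listed neuron markers 5 passed the filter on low counts, and all 5 rose in Grn KO with DMSO. The filter can be passed through Grn KO libraries alone, which ties the direction of markers low in WT to it. The sum of all 9 was 45.2 to 83.0 CPM in Grn KO with DMSO, against 7.35 to 14.6 CPM in WT with DMSO. Of 10 astrocyte markers tested 7 rose, with sums of 82.7 to 111 CPM in Grn KO with DMSO and 16.4 to 32.3 CPM in WT with DMSO. In the same comparison oligodendrocyte lineage markers gave 4 that rose and 1 that fell of 7 tested, and fibroblast, endothelial and mural markers 2 that rose of 5. Of 14 microglia markers Gpr34 rose and Aif1 and Cx3cr1 fell in Grn KO with DMSO, with sums of 2211 to 2591 CPM in Grn KO and 2242 to 2698 CPM in WT. In rimeporide Gpr34 rose and 4 of the 14 fell in Grn KO (C1qa, Cx3cr1, Tmem119 and Itgam). The sums there did not overlap, with 2048 to 2369 CPM in Grn KO and 2403 to 2620 CPM in WT. Of all genes 18.6% passed the test between genotypes in DMSO and 7.46% in rimeporide. Of 5 border macrophage markers Folr2 and Pf4 fell in Grn KO with DMSO. Their list summed to 2131 to 2236 CPM there and to 2389.8 to 2562 CPM in WT with DMSO. In rimeporide 3 of the 5 fell in Grn KO (Folr2, Pf4 and Mrc1). There 3 of 5 neuron, 6 of 10 astrocyte and 5 of 7 oligodendrocyte lineage markers rose and 0 of them fell. Of 5 fibroblast, endothelial and mural markers 1 rose and 1 fell. Neuron sums in rimeporide were 48.4 to 71.4 CPM in Grn KO and 7.91 to 14.6 CPM in WT. The part of these other transcripts in the genotype differences below was not tested. Summed lymphocyte, natural killer, granulocyte and mast cell markers, which include cells that also carry Fc receptors, summed to 7.52 to 8.79 CPM in Grn KO and 3.64 to 4.76 CPM in WT with rimeporide, and to 6.14 to 7.54 CPM in Grn KO and 1.89 to 6.34 CPM in WT with DMSO, with Ly6g at 0. Of the 2 that were tested Kit, a receptor of mast cells and other cell types, rose in Grn KO in rimeporide (2.77 ± 0.61 on the log2 scale, edgeR adjusted p = 0.00457) and in DMSO (2.11 ± 0.54, edgeR adjusted p = 0.00833). Kit had only 133 counts in all libraries together. A further measure set 3 libraries apart. The processed pseudogene score, which is the mean centred log2 CPM of 933 processed pseudogenes, was -0.77, -0.54 and -1.01 in replicates 1, 3 and 4 of Grn KO with DMSO. It lay between -0.14 and 0.59 in the other 13 libraries. RNA integrity numbers were 10 except in Grn KO with rimeporide, where they were 10, 9.9 and 9.9 with 1 not given.

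Sequences are shown for the genes that passed a test below, as the bases before their starts. RefSeq's table of GRCm38.p6 holds promoters for 9 of the 10 genes, Tyrobp being the one without an entry. Each line gives the 250 bases before the annotated start, 5' to 3' on the gene's strand. Capitals mark GAGGAA on either strand, letters bound by the myeloid factor PU.1. Fcgr2b is shown because it has none.
Trem2 (chr17:48346151-48346400, plus strand): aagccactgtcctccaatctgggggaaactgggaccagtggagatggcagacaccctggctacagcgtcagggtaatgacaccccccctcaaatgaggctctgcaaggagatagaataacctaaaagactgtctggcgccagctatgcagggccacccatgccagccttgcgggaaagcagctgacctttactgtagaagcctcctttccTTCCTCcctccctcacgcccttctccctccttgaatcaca
Inpp5d (chr1:87620062-87620311, plus strand): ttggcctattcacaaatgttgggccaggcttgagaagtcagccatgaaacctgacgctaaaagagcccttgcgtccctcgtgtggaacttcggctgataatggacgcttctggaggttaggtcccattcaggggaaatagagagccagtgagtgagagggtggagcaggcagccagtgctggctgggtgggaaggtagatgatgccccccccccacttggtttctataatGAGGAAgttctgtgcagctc
Fcgr1 (chr3:96293970-96294219, minus strand): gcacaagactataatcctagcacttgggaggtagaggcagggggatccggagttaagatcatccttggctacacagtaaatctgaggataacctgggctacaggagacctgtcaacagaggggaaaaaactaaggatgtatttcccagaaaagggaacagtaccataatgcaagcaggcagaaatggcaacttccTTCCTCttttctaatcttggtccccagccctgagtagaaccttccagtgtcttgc
Fcgr2b (chr1:170976072-170976321, minus strand): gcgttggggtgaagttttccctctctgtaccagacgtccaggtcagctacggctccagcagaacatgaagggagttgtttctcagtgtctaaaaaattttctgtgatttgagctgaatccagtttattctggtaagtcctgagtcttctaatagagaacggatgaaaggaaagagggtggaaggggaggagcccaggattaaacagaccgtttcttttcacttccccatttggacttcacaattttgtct
Fcgr4 (chr1:171018676-171018925, plus strand): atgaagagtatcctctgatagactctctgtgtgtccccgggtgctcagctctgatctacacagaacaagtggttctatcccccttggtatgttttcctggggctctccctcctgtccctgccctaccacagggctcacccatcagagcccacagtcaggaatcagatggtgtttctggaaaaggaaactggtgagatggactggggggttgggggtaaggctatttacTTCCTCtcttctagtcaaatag
GAGGAA or its complement was present in 6 of the 9 genes (Trem2, Syk at its downstream start, Inpp5d, Fcgr1, Fcgr3 and Fcgr4), and in 23.3% of 32851 promoter windows of the same length. The units differ: a gene counted if any of its starts matched, and Syk and Fcgr3 have 2 starts each, whereas the share is per window. In Trem2 it began 40 bases before the start, in Inpp5d 20 bases and in Fcgr4 22 bases. Of the other letters searched on both strands, CACGTG (the E-box) was in Plcg2 alone and in 6.02% of all windows. TCACGTGA, which contains the E-box, and TATAAA were in none of the 9, and in 0.785% and 12.4% of all windows. These matches describe letters in a window and do not show binding.

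Between genotypes the share of the 10 genes that passed was near that of all genes in DMSO. There 2 of 10 passed the test, Inpp5d lower and Fcgr2b higher in Grn KO, where 18.6% of all genes tested passed. Across the 10 genes the median log2 fold change was -0.07, and it was 0.01 over all genes. In 3 of the 10 (Plcg2, Inpp5d and Fcgr2b) the 4 Grn KO and the 4 WT libraries did not overlap, as in 16.6% of all genes. In rimeporide, edgeR's quasi-likelihood test passed 0 of 10, with 4 at an unadjusted p under 0.05 (Plcg2, Fcgr1, Fcgr2b and Fcgr4), and 7.46% of all genes passed. DESeq2 and limma-voom also passed 0 of 10 there. Averaged over both treatments, Inpp5d fell and Fcgr2b and Fcgr4 rose in Grn KO, 3 of 10, where 15.6% of all genes passed.

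Between rimeporide and DMSO 4 of the 10 genes passed in Grn KO cells: Trem2, Tyrobp and Inpp5d rose and Fcgr1 fell, where 14.8% of all genes passed. The libraries with rimeporide and with DMSO did not overlap for 4 of the 10 (Trem2, Inpp5d, Fcer1g and Fcgr1), as in 13% of all genes. With the pseudogene score in the model none of these 4 calls stood, and 1 of all 12272 genes passed. The score is lowest in Grn KO with DMSO, so score and group cannot be told apart there. In WT cells edgeR passed 0 of the 10, with 0 at an unadjusted p under 0.05, and 0% of all genes, of which 676 had an unadjusted p under 0.05. DESeq2 passed 6 genes and limma-voom 0, none of them among the 10. Averaged over genotypes 1 of 10 passed, Fcgr1, against 3.66% of all genes. The interaction, which tests whether rimeporide acts differently in the 2 genotypes, passed in edgeR for 0 of the 10 and for 0.0163% of all genes. It had 1 member at an unadjusted p under 0.05, Inpp5d, which DESeq2 passed (adjusted p = 0.0444) and limma-voom did not. In the main edgeR model, which has no replicate block, no response of the 10 in Grn KO is thus shown to differ from that in WT. For Inpp5d the outcome depends on the model, and edgeR fits with a replicate block passed its interaction. In these bulk samples fewer cells that express a gene and less RNA per cell cannot be told apart. The genotype comparison in DMSO and the rimeporide comparison in Grn KO use the same 4 libraries of Grn KO with DMSO, so their values are not independent.

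**Figure D1:**
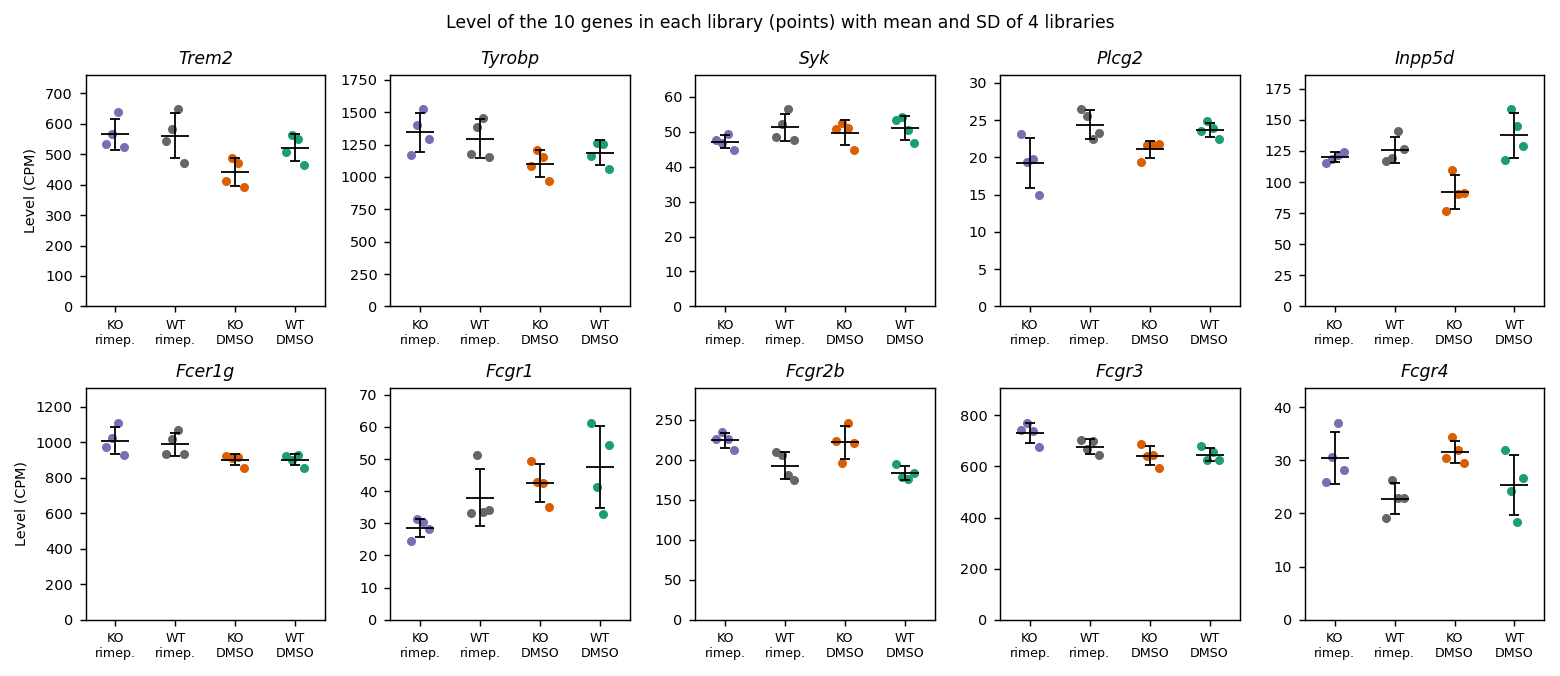
Level in CPM (vertical axes, from 0) of each of the 10 genes in every library, with the mean and SD of the 4 libraries of a group, in Grn KO and WT with rimeporide and in Grn KO and WT with DMSO (left to right). Inpp5d had its 4 lowest libraries in Grn KO with DMSO, between 77.0 and 109.9 CPM, and Fcgr1 was at 24.6 to 31.2 CPM in Grn KO with rimeporide, below all 12 other libraries.

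Trem2, the receptor, had 534, 567, 637 and 524 CPM in Grn KO with rimeporide and 543, 583, 648 and 472 CPM in WT with rimeporide (replicates 1 to 4). With DMSO it had 413, 488, 471 and 391 CPM in Grn KO and 507, 564, 551 and 466 CPM in WT. The 4 libraries of Grn KO with rimeporide were all above the 4 of Grn KO with DMSO, while the genotypes overlapped in both treatments. With rimeporide Trem2 rose 1.28-fold in Grn KO (log2 fold change 0.36 ± 0.097 SE, n = 4 per group, edgeR adjusted p = 0.0153). In WT the difference was 0.11 ± 0.097 (edgeR adjusted p = 0.985, 95% interval -0.10 to 0.30), and the interaction was 0.26 ± 0.14 (edgeR adjusted p = 0.322). Between genotypes Trem2 did not pass: the log2 fold change was -0.24 ± 0.097 in DMSO (edgeR adjusted p = 0.0819) and 0.01 ± 0.097 in rimeporide (edgeR adjusted p = 0.973). Without replicate 2 of Grn KO or replicate 4 of WT the difference in DMSO passed (-0.31 and -0.29, edgeR adjusted p = 0.0235 and 0.0456). Its rise in Grn KO moved with the pseudogene score, which was 0.13 to 0.59 in the libraries with rimeporide and -1.01 to 0.12 in those with DMSO. With that score in the model the log2 fold change was -0.0038 ± 0.098 (edgeR adjusted p = 1), and without replicate 1 or 4 of Grn KO with DMSO or replicate 3 of Grn KO with rimeporide the adjusted p was 0.0606, 0.0733 and 0.0849.

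Tyrobp, the ITAM adaptor of TREM2, followed the same order of groups. It was at 1169, 1400.5, 1522 and 1293 CPM in Grn KO with rimeporide and at 1179, 1389, 1455 and 1153 CPM in WT with rimeporide. In DMSO the libraries held 1085, 1208, 1151 and 965 CPM in Grn KO and 1164, 1263, 1257 and 1061 CPM in WT. Only replicate 1 of Grn KO with rimeporide fell below the highest library of Grn KO with DMSO. The rise with rimeporide in Grn KO was 1.22-fold (log2 0.29 ± 0.094, edgeR adjusted p = 0.0408). In WT the difference was 0.13 ± 0.094 (edgeR adjusted p = 0.985), and Grn KO differed from WT by -0.11 ± 0.094 in DMSO (edgeR adjusted p = 0.476) and by 0.06 ± 0.094 in rimeporide (edgeR adjusted p = 0.828). This call was lost more often than the other 3: 8 of 16 libraries, left out singly, raised its adjusted p above 0.05, to at most 0.178 without replicate 3 of Grn KO with rimeporide. The 8 were replicates 1, 3 and 4 of Grn KO with DMSO, replicates 2, 3 and 4 of Grn KO with rimeporide, and replicate 2 of WT in each treatment. The call was also lost with no filter on low counts (adjusted p = 0.064), with only the groups compared in the model (0.0597) and in limma on the authors' log2 CPM (0.148). With the pseudogene score in the model the log2 fold change was -0.05 ± 0.10 (edgeR adjusted p = 1).

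The level of Trem2 per unit of Tyrobp in the same library gives a measure that does not depend on scaling. It was 0.421 ± 0.0244 in Grn KO with rimeporide and 0.434 ± 0.0231 in WT with rimeporide (ratio of counts, SD, n = 4). With DMSO it was 0.400 ± 0.0126 in Grn KO and 0.440 ± 0.00460 in WT. The 4 Grn KO libraries with DMSO reached at most 0.409 and the 4 WT libraries with DMSO at least 0.435, so these groups did not overlap, whereas in rimeporide they did. Ratios are given with no test.

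Syk, the kinase that docks on phosphorylated ITAMs, showed the narrowest spread of the 10 genes, 0.34 on the log2 scale between its lowest and highest library. It was at 47.7, 46.9, 49.3 and 44.8 CPM in Grn KO with rimeporide and at 48.7, 52.2, 56.4 and 47.8 CPM in WT with rimeporide. In DMSO it was at 50.7, 52.6, 51.2 and 44.7 CPM in Grn KO and at 53.3, 54.3, 50.4 and 46.7 CPM in WT. No comparison passed, and the 95% interval of the log2 fold change between genotypes was -0.24 to 0.16 in DMSO and -0.32 to 0.09 in rimeporide. For rimeporide the interval was -0.28 to 0.13 in Grn KO and -0.20 to 0.20 in WT.

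Plcg2, the phospholipase downstream of SYK, had lower group means in Grn KO and did not pass. Its libraries held 23.1, 19.4, 19.7 and 14.9 CPM in Grn KO with rimeporide and 26.4, 25.5, 22.4 and 23.3 CPM in WT with rimeporide. With DMSO they held 19.3, 21.6, 21.6 and 21.7 CPM in Grn KO and 23.5, 24.8, 23.9 and 22.4 CPM in WT. The genotypes did not overlap in DMSO, by a gap of less than 1 CPM, and overlapped in rimeporide through replicate 1 of Grn KO. The log2 fold change in Grn KO was -0.17 ± 0.13 in DMSO (edgeR adjusted p = 0.400) and -0.34 ± 0.13 in rimeporide (edgeR adjusted p = 0.146). Averaged over treatments it was -0.25 ± 0.092 (edgeR adjusted p = 0.066), and it passed without replicate 2 of Grn KO with DMSO or replicate 1 of Grn KO with rimeporide (adjusted p = 0.043 and 0.0237).

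Inpp5d, the phosphatase that limits this signalling, had the largest log2 difference of the 10 between genotypes in DMSO, though not in rimeporide or averaged over treatments. Its levels were 116, 119, 122 and 124 CPM in Grn KO with rimeporide and 117, 119, 141 and 127 CPM in WT with rimeporide. In DMSO they were 77.0, 109.9, 90.0 and 91.0 CPM in Grn KO and 117, 159, 145 and 129 CPM in WT. Every Grn KO library with DMSO lay below every other library, and the genotypes overlapped in rimeporide. In DMSO Inpp5d fell in Grn KO to 0.666 of the WT level (log2 -0.59 ± 0.10, n = 4 per group, edgeR adjusted p = 0.000361), and this passed without any single library of the 16, with adjusted p up to 0.00267. In rimeporide the difference between genotypes was -0.06 ± 0.11 (edgeR adjusted p = 0.828). With rimeporide Inpp5d rose 1.31-fold in Grn KO (log2 0.39 ± 0.11, edgeR adjusted p = 0.0154), and in WT the difference was -0.13 ± 0.10 (edgeR adjusted p = 0.985). The interaction was 0.52 ± 0.15, with an unadjusted p of 0.00187 and an edgeR adjusted p of 0.0967. Left-out libraries moved that adjusted p between 0.00539 (without replicate 2 of Grn KO with DMSO, the highest of its group) and 0.227.

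The pseudogene score was low in 3 of the 4 Grn KO libraries with low Inpp5d, and replicate 2, where the score was 0.12, had the highest Inpp5d of that group at 109.9 CPM. With the score in the model the genotype difference in DMSO was -0.37 ± 0.11 (edgeR adjusted p = 0.0498). The rise with rimeporide in Grn KO was then 0.12 ± 0.13 (edgeR adjusted p = 1), and it also missed the threshold without replicate 1 or 4 of Grn KO with DMSO (adjusted p = 0.078 and 0.0527) or replicate 3 of Grn KO with rimeporide (0.0542). Averaged over treatments the fall in Grn KO was -0.33 ± 0.074 (edgeR adjusted p = 0.0029), and -0.25 ± 0.066 with the score in the model (edgeR adjusted p = 0.0097). Set against Syk in the same library, Inpp5d stood at 2.55 ± 0.153 in Grn KO with rimeporide, 2.46 ± 0.154 in WT with rimeporide, 1.85 ± 0.266 in Grn KO with DMSO and 2.69 ± 0.335 in WT with DMSO (ratio of counts, SD, n = 4). The highest ratio in Grn KO with DMSO was 2.09 and the lowest in WT with DMSO 2.20.

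**Figure D2:**
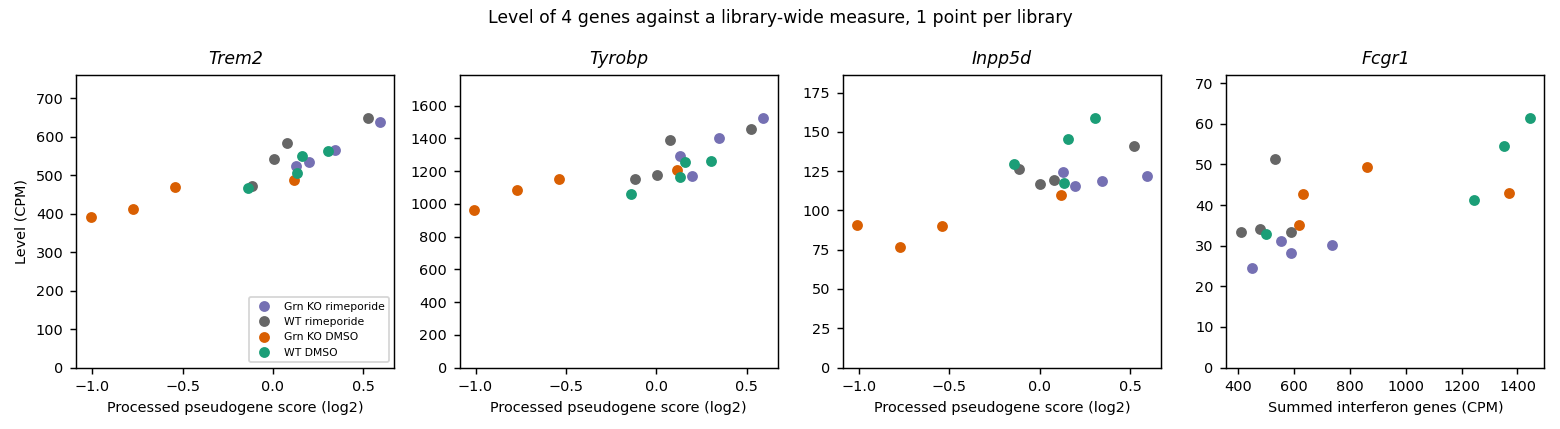
Level in CPM of Trem2, Tyrobp and Inpp5d against the processed pseudogene score (log2), and of Fcgr1 against the summed level of 15 interferon response genes (CPM), with 1 point per library coloured by group. The 3 libraries at scores of -1.01, -0.77 and -0.54 are all Grn KO with DMSO, and Trem2 was at 391, 413 and 471 CPM in them.

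Fcer1g, the shared ITAM chain of the activating Fc receptors, differed little between genotypes, within narrow intervals. It was at 972, 1022, 1111 and 931 CPM in Grn KO with rimeporide and at 935, 1017, 1067 and 935 CPM in WT with rimeporide. In DMSO it was at 923, 913, 917 and 857 CPM in Grn KO and at 924, 899.5, 926 and 857 CPM in WT. The log2 difference between genotypes was 0.0013 in DMSO (95% interval -0.14 to 0.14) and 0.03 in rimeporide (95% interval -0.11 to 0.17). All libraries with rimeporide were above those with DMSO of the same genotype, by 0.16 ± 0.069 in Grn KO (edgeR adjusted p = 0.122) and by 0.13 ± 0.070 in WT (edgeR adjusted p = 0.929). Fcer1g in WT was the 1 member of 10 without overlap there, against 3.33% of all genes.

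Fcgr2b, the only inhibitory Fc gamma receptor of the mouse, was higher in Grn KO in each treatment. It was at 226, 234, 226 and 212 CPM in Grn KO with rimeporide and at 209.8, 206, 181 and 175 CPM in WT with rimeporide. In DMSO it was at 224, 196, 247 and 221 CPM in Grn KO and at 195, 178, 176 and 183 CPM in WT. The genotypes overlapped in neither treatment, although in both the gap was under 3 CPM. Fcgr2b rose 1.21-fold in Grn KO with DMSO (log2 0.28 ± 0.082, n = 4 per group, edgeR adjusted p = 0.0212). The difference was 0.22 ± 0.083 in rimeporide (edgeR adjusted p = 0.130), where Fcgr1 was the other of 2 members without overlap, against 12.6% of all genes. Averaged over treatments the rise was 0.25 ± 0.058 (edgeR adjusted p = 0.0039), and it passed without any single library. The DMSO call was lost without replicate 1 or 3 of Grn KO (adjusted p = 0.0529 and 0.0901) or replicate 2 or 3 of WT (0.0726 and 0.0631), with only the groups compared in the model (0.0576), and with the pseudogene score in it (0.20 ± 0.10, adjusted p = 0.304). Rimeporide gave 0.02 ± 0.082 in Grn KO and 0.07 ± 0.083 in WT, and neither passed (edgeR adjusted p = 0.922 and 0.988).

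Fcgr3, a low-affinity activating receptor, did not differ detectably between genotypes. Its libraries held 744, 770.1, 738 and 677 CPM in Grn KO with rimeporide and 702, 667, 699.7 and 644 CPM in WT with rimeporide. In DMSO they held 689, 642, 644 and 595 CPM in Grn KO and 679, 627, 656 and 626 CPM in WT. The genotype difference was -0.01 ± 0.068 in DMSO (95% interval -0.15 to 0.13), and that for rimeporide in Grn KO was 0.19 ± 0.068 (edgeR adjusted p = 0.0624). That difference for rimeporide passed in DESeq2 (adjusted p = 0.0227), in limma-voom (0.0467), with upper quartile factors (0.0453) and without replicate 4 of Grn KO with rimeporide (0.0474). It passed in 5 of 11 settings other than left-out libraries, with log2 fold changes of 0.09 to 0.21, and in 1 of 16 left-out fits. With the pseudogene score in the model it did not pass. Fcgr2b and Fcgr3 are close relatives: their reference transcripts shared 233 stretches of 31 bases, 17.7% of those of Fcgr3, but none in the last 500 bases, where 3' tags mostly fall. Their deposited counts were not whole in any library, so reads were divided by estimation, and an error in that division was not tested. Counts were also not whole in 81.25% of libraries for Trem2 and in 37.5% for Inpp5d. The reference transcripts of these 2 genes shared 0 such stretches with other genes, and the source of their fractions was not tested.

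Fcgr4, an activating receptor for IgG2 subclasses, had 25.9, 30.7, 37.1 and 28.2 CPM in Grn KO with rimeporide and 19.2, 26.2, 22.8 and 22.9 CPM in WT with rimeporide. With DMSO it had 30.4, 34.4, 32.0 and 29.6 CPM in Grn KO and 31.9, 24.3, 18.4 and 26.6 CPM in WT. A single WT library in each treatment reached into the Grn KO range. Neither treatment alone passed, with 0.32 ± 0.15 in DMSO (edgeR adjusted p = 0.144) and 0.43 ± 0.16 in rimeporide (edgeR adjusted p = 0.104). Averaged over treatments Fcgr4 rose 1.30-fold in Grn KO (log2 0.38 ± 0.11, edgeR adjusted p = 0.0178). Without replicate 3 of Grn KO with rimeporide this was 0.30 with an adjusted p of 0.0651, and with the pseudogene score in the model 0.43 ± 0.11 with an adjusted p of 0.00788. These are 88 to 244 counts per library.

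Fcgr1, the high-affinity IgG receptor, is induced by interferon in macrophages. It was at 24.6, 31.2, 30.2 and 28.2 CPM in Grn KO with rimeporide and at 33.3, 51.2, 33.4 and 34.1 CPM in WT with rimeporide. In DMSO it was at 49.3, 43.0, 42.6 and 35.0 CPM in Grn KO and at 61.3, 41.4, 32.9 and 54.4 CPM in WT. All 4 libraries of Grn KO with rimeporide were below all others, and WT with DMSO spread widest. With rimeporide Fcgr1 fell in Grn KO by 0.57 ± 0.17 on the log2 scale, 1.49-fold (edgeR adjusted p = 0.0299), and averaged over genotypes by 0.45 ± 0.12 (edgeR adjusted p = 0.0432). In WT the difference was -0.33 ± 0.17 (edgeR adjusted p = 0.923), and the interaction was -0.24 ± 0.24 (edgeR adjusted p = 0.644). The call in Grn KO was lost without replicate 1 or 3 of Grn KO with DMSO (adjusted p = 0.114 and 0.0557) or replicate 1, 3 or 4 of Grn KO with rimeporide (0.0801, 0.0656 and 0.0541). With the pseudogene score in the model the size was -0.56 ± 0.26 and did not pass (adjusted p = 1), and the averaged call was lost without any of 12 libraries (adjusted p of the 16 from 0.0175 to 0.108).

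The 15 interferon response genes, among them Irf7, Isg15 and Ifit3, summed to 449.8, 554, 736 and 591 CPM in Grn KO with rimeporide and to 589, 532, 410.2 and 479 CPM in WT with rimeporide. With DMSO they summed to 862, 1368, 634 and 618 CPM in Grn KO and to 1445, 1245, 500 and 1352 CPM in WT. The lowest WT library for Fcgr1 in DMSO, replicate 3, was also the lowest for the interferon sum, while replicate 2 of WT with rimeporide had the highest Fcgr1 of its group at a sum inside its group's range. With rimeporide 3 of the 15 fell in Grn KO, where 14.8% of all genes passed. These were Isg15 (by 1.20 ± 0.33), Ifit3 (by 1.40 ± 0.42) and Ifit2 (by 1.17 ± 0.38), and the median log2 fold change of the 15 was -0.42. Their median was -1.40 in WT, where all 15 had an unadjusted edgeR p under 0.05 and an adjusted p above it. Averaged over genotypes 6 of the 15 fell and 0 rose, with a median of -1.12, where 3.66% of all genes passed. The part of this response in the level of Fcgr1 was not tested.

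**Figure D3:**
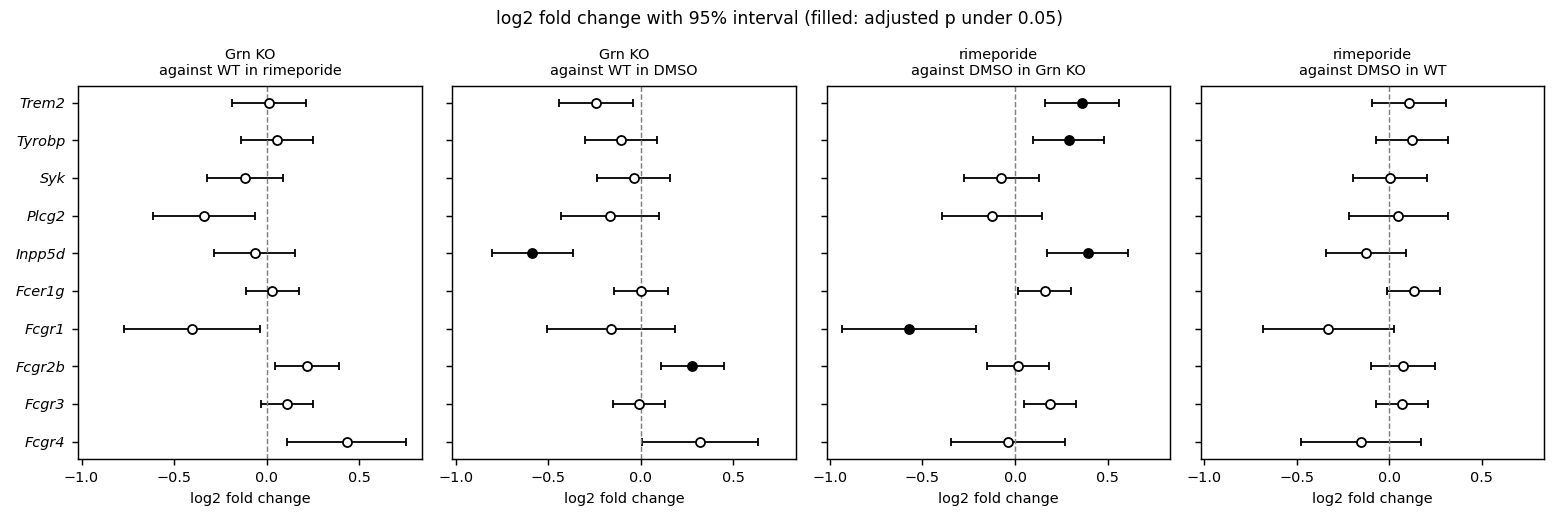
Log2 fold change (horizontal axis) with its 95% interval from edgeR for the 10 genes in 4 comparisons, with filled points for an adjusted p under 0.05. The filled points are Inpp5d (-0.59) and Fcgr2b (0.28) for Grn KO against WT in DMSO, and Trem2 (0.36), Tyrobp (0.29), Inpp5d (0.39) and Fcgr1 (-0.57) for rimeporide against DMSO in Grn KO.

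The balance of inhibitory to activating Fc receptors was read as the counts of Fcgr2b over the summed counts of Fcgr1, Fcgr3 and Fcgr4. Most of that sum was Fcgr3, so the ratio mainly sets Fcgr2b against Fcgr3. In Grn KO with DMSO, for example, the means were 643 CPM for Fcgr3, 42.5 CPM for Fcgr1 and 31.6 CPM for Fcgr4. The ratio was 0.284, 0.282, 0.280 and 0.290 in Grn KO with rimeporide and 0.278, 0.276, 0.240 and 0.249 in WT with rimeporide. In DMSO it was 0.291, 0.273, 0.343 and 0.335 in Grn KO and 0.253, 0.257, 0.249 and 0.259 in WT. Grn KO was above WT in every library of the same treatment. The means were 0.310 ± 0.0340 in Grn KO with DMSO and 0.255 ± 0.00446 in WT with DMSO (SD, n = 4).

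Between 2 activating receptors, the ratio of Fcgr4 to Fcgr1 counts separated the genotypes as well. It was 1.07 ± 0.111 in Grn KO with rimeporide and 0.611 ± 0.0815 in WT with rimeporide, and 0.752 ± 0.0988 in Grn KO with DMSO and 0.538 ± 0.0428 in WT with DMSO (SD, n = 4). The lowest Grn KO ratio in rimeporide was 0.984 and the highest WT ratio 0.684, and in DMSO these bounds were 0.616 and 0.587. This ratio and that of Inpp5d to Syk were chosen after the levels had been seen.

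**Figure D4:**
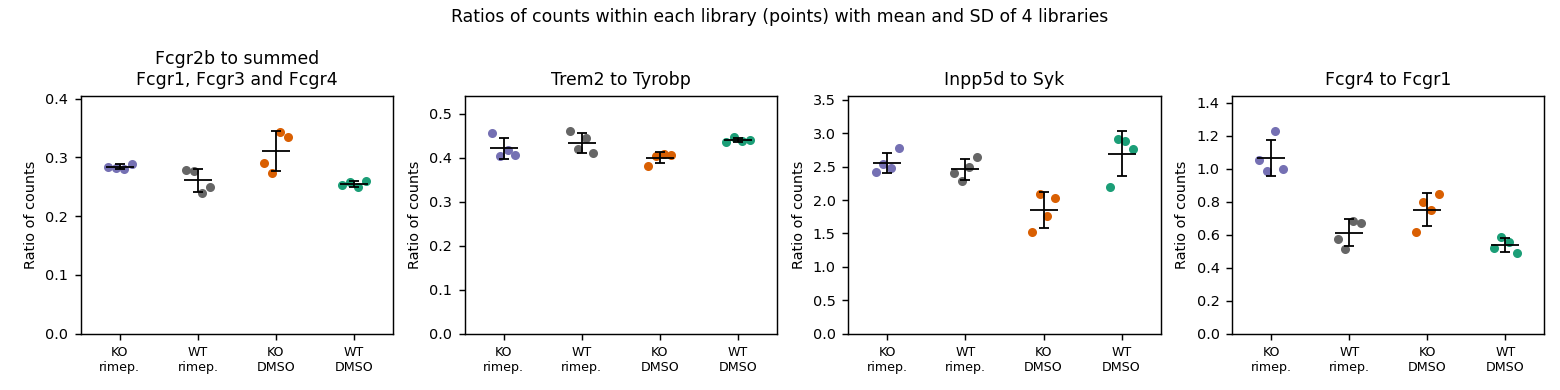
Ratio of counts within each library (vertical axes, from 0) for 4 pairs, with the mean and SD of 4 libraries, in Grn KO and WT with rimeporide and in Grn KO and WT with DMSO. The ratio of Fcgr2b to the summed activating receptors was 0.280 to 0.290 in Grn KO and 0.240 to 0.278 in WT with rimeporide, and 0.273 to 0.343 in Grn KO and 0.249 to 0.259 in WT with DMSO.

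Other receptors that signal through TYROBP, FCER1G or SYK were read from a list of 20 genes, of which 16 were tested. In Grn KO with DMSO 1 rose, 5 fell and 10 did not pass, where 18.6% of all genes passed. Clec7a (Dectin-1), which binds fungal glucans, rose to 612 ± 29.2 CPM in Grn KO with DMSO, against 396 ± 23.1 CPM in WT with DMSO (SD, n = 4), a log2 fold change of 0.63 ± 0.085 (edgeR adjusted p = 1.17e-05). Clec4d, a lectin that signals through FCER1G, fell to 163 ± 7.36 CPM, against 258 ± 23.7 CPM in WT (-0.66 ± 0.081, edgeR adjusted p = 3.18e-06). Clec4n (Dectin-2), a lectin that pairs with the same chain, fell by 0.79 ± 0.13 on the log2 scale. Trem1, which pairs with TYROBP and amplifies inflammation, was at 0.897 ± 0.515 CPM in Grn KO and 4.47 ± 1.07 CPM in WT (-2.35 ± 0.41). The median over the 16 was -0.18. In rimeporide Clec7a (0.46 ± 0.085), Clec4d (-0.61 ± 0.082) and Clec4n (-0.51 ± 0.14) passed again, with Pira2 (0.57 ± 0.16), so that 2 rose and 3 fell. Over all genes 7.46% passed there. Rimeporide in Grn KO changed 1 of the 16, the integrin chain Itgb2 (0.27 ± 0.089, edgeR adjusted p = 0.0447), where 14.8% of all genes passed.

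Among Src family kinases and signal relays, which phosphorylate ITAMs or carry the signal onward, 30 of 32 listed genes were tested. In Grn KO with DMSO 4 rose and 5 fell, where 18.6% of all genes passed, with a median log2 fold change of 0.015 over the 30. Lyn, a kinase that phosphorylates both activating and inhibitory motifs, was at 268 ± 7.50 CPM in Grn KO and 353 ± 14.8 CPM in WT (-0.40 ± 0.071, edgeR adjusted p = 0.000361). The adaptor gene Lat2 rose to 639 ± 62.6 CPM in Grn KO, against 418 ± 57.3 CPM in WT (0.61 ± 0.10, edgeR adjusted p = 0.000128). Sh3bp2, an adaptor that binds SYK, fell by 0.50 ± 0.097, and Prkca, a protein kinase C gene, rose at a low level of 7.01 ± 2.17 CPM in Grn KO and 1.61 ± 1.15 CPM in WT. In rimeporide 4 rose and 2 fell, where 7.46% of all genes passed. Among them were Lyn (-0.36 ± 0.072) and Pik3cd, the leukocyte PI3 kinase subunit (0.60 ± 0.14). Rimeporide in Grn KO raised 3 and lowered 4, where 14.8% of all genes passed. Fyn rose by 0.52 ± 0.12, Tec by 0.55 ± 0.15 and Nfatc1 by 0.43 ± 0.12, and Gab2, a docking protein, fell by 0.68 ± 0.14.

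Inhibitory receptors, phosphatases and ubiquitin ligases gave 23 tested genes of 26. With DMSO 2 rose and 5 fell in Grn KO (median -0.09), where 18.6% of all genes passed. Cd33, a sialic acid receptor and in humans a risk locus for Alzheimer's disease, rose to 25.5 ± 4.54 CPM, against 15.5 ± 2.67 CPM in WT (0.73 ± 0.18, edgeR adjusted p = 0.00522). Whether Cd33 acts as an inhibitory receptor in these mouse cells was not tested. Ptpn6 (SHP-1), the phosphatase recruited by many inhibitory receptors, fell to 67.3 ± 10.9 CPM, against 86.2 ± 6.75 CPM in WT (-0.37 ± 0.10, edgeR adjusted p = 0.0135). Lilrb4a, an inhibitory receptor, was at 493, 621, 726 and 601 CPM in Grn KO with rimeporide and at 270.0, 461, 342 and 243 CPM in Grn KO with DMSO. Its groups did not overlap, and rimeporide raised it by 0.90 ± 0.16 in Grn KO (edgeR adjusted p = 0.00369), as it did its near copy Lilrb4b (0.77 ± 0.14, edgeR adjusted p = 0.00369). Reads may be shared between these 2 genes. In DMSO Lilrb4a was lower in Grn KO than in WT (-0.63 ± 0.16, edgeR adjusted p = 0.00952). In rimeporide 3 rose and 0 fell, where 7.46% of all genes passed. The 3 were Cd33 (0.68 ± 0.18), Cd300lf (0.96 ± 0.19) and Cd22 (1.10 ± 0.25).

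Of 5 tested genes for TREM2 ligands, relatives and the proteases that shed it, Clu rose in Grn KO with DMSO, at 5.18 ± 2.30 CPM in Grn KO and 0.434 ± 0.393 CPM in WT (3.56 ± 0.62, edgeR adjusted p = 0.000281). Clu had 254 counts in all libraries together. At so low a level in WT the filter was passed through higher libraries, so a fall could hardly be called. Clu encodes clusterin, a TREM2 ligand that astrocytes express strongly, and the summed astrocyte markers differed between the same libraries as given above. Their part in the level of Clu was not tested. Among 4 tested genes for other Fc receptors and antibody handling 1 passed in DMSO, Fcgrt, the neonatal Fc receptor that recycles IgG (-0.44 ± 0.10, edgeR adjusted p = 0.0046). Over all genes 18.6% passed in that comparison. Rimeporide in Grn KO passed 0 of the 5 and 0 of the 4 in edgeR, with 1 and 0 at an unadjusted p under 0.05, where 14.8% of all genes passed. With the pseudogene score in the model, rimeporide in Grn KO passed 0 genes upward and 1 downward of all 12272 in edgeR, with 568 at an unadjusted p under 0.05. None of the rises and falls with rimeporide in Grn KO named for these lists, those of Lilrb4a, Lilrb4b, Fyn, Tec, Nfatc1, Gab2, Itgb2, Isg15, Ifit3 and Ifit2, passed in that model. For Grn KO against WT in DMSO the calls of Clec7a, Clec4d, Clec4n, Trem1, Lyn, Lat2, Sh3bp2 and Clu passed in it, and those of Prkca, Cd33, Ptpn6, Lilrb4a, Fcgrt and the markers Gpr34, Aif1, Cx3cr1 and Kit did not. The genes of all these lists were chosen for their known roles with earlier results on these libraries at hand.

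As a description of which genes resembled Trem2, each gene's centred log2 CPM was set against that of Trem2 over the 16 libraries, and the mean absolute difference was taken for 8799 genes with a mean of at least 5 CPM. Processed pseudogenes and genes with placeholder names (Gm, Rik, -ps or accession names) were left out of the 8799. The 5 nearest were Gnb1 (0.05), a G protein beta subunit, the ribosomal genes Rps10 (0.06), Fau (0.06) and Rpl15 (0.06), and the calpain subunit gene Capns1 (0.06). Tyrobp ranked 13, Fcer1g 93 and Fcgr3 318 among the 8799. Inpp5d ranked 755 and Syk 756, Fcgr4 6559 and Fcgr1 8123. All genes are read in the same 16 libraries, which differ in depth and in pseudogene score, so nearness in this measure is a description only. Gnb1 was at 301 ± 30.4 CPM in Grn KO with rimeporide, 299 ± 21.3 CPM in WT with rimeporide, 244 ± 30.3 CPM in Grn KO with DMSO and 284 ± 17.9 CPM in WT with DMSO, which is the order of groups that Trem2 has.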

How the data were processed

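The 16 libraries were made with a 3' tag kit, per the labels' protocols. The values deposited by the authors are expected counts for each gene, and the submitters' processing notes name Salmon and GRCm39. They also deposited log2 CPM values of the genes they kept. Neither the annotation release nor duplicate removal is stated. Of the expected counts 13.7% were not whole (tolerance 1e-06), and rounding changed 0.0207% of the total.

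Genes were filtered by filterByExpr of edgeR 4.0.16 (R 4.3.3; minimum count 10, minimum total 15), scaled by TMM and fitted over all 16 libraries by quasi-likelihood, with a mean for each group (12 residual and 10.8 prior degrees of freedom). A gene passed at a Benjamini-Hochberg adjusted p under 0.05 over the 12272 genes. Standard errors were derived from F and the log2 fold change, and scripts were tested on simulated data. Biotypes came from the reference annotation. The members and lists were chosen with earlier results of these data known. Named genes are the 10 members, Grn, up to 4 genes per list with the smallest p among those that passed (some are not reported here) and the 5 genes nearest to Trem2. Alternatives were DESeq2 1.42.0, limma-voom (limma 3.58.1), other scalings and filters, left-out libraries, replicate blocks, a pseudogene covariate, only the groups compared and, added after the data had been seen, limma on the authors' log2 CPM.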

Additional observations from a re-analysis of the deposited data

Results flagged for a closer look

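Within-group levels were examined for 56 groups of 4 libraries, and 3 had a library whose gap to its nearest neighbour exceeded Dixon's 95% critical value as a share of the group's range, a bound that chance passes in about 1 of 20 groups. Plcg2 was at 19.3 CPM in replicate 1 of Grn KO with DMSO, below 3 libraries at 21.6 to 21.7 CPM (gap 0.951 of the range). Fcer1g was at 857 CPM in replicate 4 of Grn KO with DMSO, below 3 libraries at 913 to 923 CPM (0.852). Fcgr1 was at 51.2 CPM in replicate 2 of WT with rimeporide, above 3 libraries at 33.3 to 34.1 CPM (0.957).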

How the results depend on the processing

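The fall of Inpp5d in Grn KO with DMSO, and the averaged genotype differences of Inpp5d, Fcgr2b and Fcgr4, passed in every alternative other than left-out libraries that was run for them. With the pseudogene score as a covariate the log2 fold change of Trem2 turned to 0.0349 for Grn KO against WT in DMSO and to -0.0038 for rimeporide in Grn KO, and that of Tyrobp for rimeporide in Grn KO turned to -0.0463. The score is itself lowest in Grn KO with DMSO, so score and group cannot be told apart there. With it, genes that passed numbered 808 for Grn KO against WT in DMSO (1 member), 1 for rimeporide in Grn KO (0 members), 17 averaged over genotypes (0 members), 2 in WT and 0 for the interaction. Only the groups compared in the model left 1 member for Grn KO against WT in DMSO. DESeq2 passed 6 genes for rimeporide in WT, 801 averaged over genotypes (3 members) and 276 for the interaction (1 member). Limma-voom passed 746 averaged over genotypes (2 members) and 166 for the interaction, and limma on the authors' log2 CPM 0 for the interaction. With no filter on low counts the numbers were 95 in WT, 970 averaged over genotypes (2 members) and 630 for the interaction. Why these numbers differ was not tested.

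Replicate numbers were not taken as pairs, because the labels do not say that same-numbered libraries share a culture or animal. The residuals of same-numbered libraries of a genotype correlated at -0.004 to 0.185, over 0.1 in 4 of 8 pairs. Among 4 candidates each, 10 of 16 libraries matched best with their own number in the other treatment of their genotype. Over all other groups 27 of 48 best matches had the same number. The check does not show that the numbers are unrelated, so blocked fits are given here. A replicate block within genotype passed 8 genes for rimeporide in WT, 1275 averaged over genotypes (5 members) and 690 for the interaction (1 member, Inpp5d, adjusted p = 0.0267). A replicate block shared by all groups passed 6, 1321 (5 members) and 694 (1 member, Inpp5d, adjusted p = 0.0197), and passed Trem2 for Grn KO against WT in DMSO (-0.25, adjusted p = 0.0051).

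Left-out libraries gave 1430 to 3345 genes and 1 to 3 members for Grn KO against WT in DMSO, 701 to 1086 and 0 to 0 in rimeporide, and 1660 to 2712 and 2 to 4 averaged. For rimeporide they gave 0 to 40 and 0 to 0 in WT, 643 to 3002 and 0 to 4 in Grn KO, 11 to 1746 and 0 to 3 averaged, and 0 to 1497 and 0 to 1 for the interaction. The 70 log2 fold changes of the members (10 genes in 7 comparisons) had 1830 values under the alternatives. Of the 10 that had passed, 215 values kept the call and 46 lost it, 2 of them with the other sign. Of the 60 that had not, 33 values gained a call and 1536 did not, 70 of these with the other sign. Fcgr1, Fcgr4 and Plcg2 rest on few counts per library, which limits the differences that can be seen.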
